A study of Mus musculus with 2 samples.

Results

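The genes described here encode substrate-binding parts of ubiquitin ligases, and a few whole ligases, in regenerating mouse muscle with and without the transcription factor MEF2A. They are 61 of the 19938 genes that the array measured with a probe set annotated to 1 gene symbol. Members were chosen by symbol: 18 Asb genes, 36 Klhl genes (kelch-like), and a set of 7 made up of Fbxo30, Fbxo32, Fbxo40, Trim54, Trim55, Trim63 and Trim72. Where a gene had several probe sets, the probe set was selected by its mean over both pools, the highest being kept. The families were proposed with the differences between the pools already known, so the counts and medians below are descriptions, and no test is attached to them.

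Total RNA came from tibialis anterior muscle of adult mice of 129Sv/C57BL6 background, aged 2 to 4 months and of both sexes, taken 7 days after an injection of cardiotoxin (10 µM, 50 µl) into the same muscle. Cardiotoxin, a venom peptide, kills muscle fibres, which satellite cells then rebuild. One group was wild type (Mef2a +/+) and the other Mef2a knockout (Mef2a -/-), and both were injured. Equal amounts of RNA from 5 mice were pooled in each genotype and hybridised to 1 array, so there are 2 values per gene and no replicate. The spread between mice or between arrays cannot be estimated. Values are log2 RMA values. A difference is the value of the pool labelled knockout minus that of the wild type pool, and a pair of values is given in the order wild type, knockout. Mef2a itself read 8.92 on the wild type array and 9.06 on the knockout one. The deleted part of the gene is not given in the sources used here, so this probe set does not check the labels, and each direction below rests on them.

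Ubiquitin ligases attach ubiquitin to proteins and so mark them, in many cases, for the proteasome. Asb proteins carry ankyrin repeats that hold a substrate and a SOCS box that joins elongins B and C to cullin 5. Kelch-like proteins hold the substrate with kelch repeats and bind cullin 3 through a BTB domain. F-box proteins join cullin 1 through SKP1, whereas TRIM proteins carry their own RING domain and need no cullin. Muscle is known for many of these genes: Fbxo32 (atrogin-1) and Trim63 (MuRF1) are induced when fibres waste, and loss of KLHL40 or KLHL41 causes nemaline myopathy in people.

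A gene is called measurable here if at least 1 of its values was no lower than 4.39, a floor set at the median of the whole table. This floor is arbitrary and is no detection call. It was reached by 53 of the 61 members and by 11787 of all genes. The 8 members below it were Asb4, Asb9, Asb17, Klhl1, Klhl4, Klhl10, Klhl14 and Klhl32. Some of these are known from other tissues, Asb17 and Klhl10 from testis and Klhl1 from nerve cells. Over the measurable genes the difference had a median of 0.03 and a robust SD of 0.28. Of these genes, 1.9% were at least 1.5-fold lower in the knockout pool and 6.45% at least 1.5-fold higher.

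Because MEF2 proteins bind an AT-rich site of 10 bases, RefSeq promoter sequences (GRCm38.p6, 250 bases before to 50 bases after an annotated start) were searched for it and for 4 other motifs of muscle promoters. A promoter was held for 52 of the 61 members. A match to the MEF2 consensus lay in a promoter of 8 of them, and each of the 8 is shown because Mef2a is the gene targeted in the knockout. Each sequence runs 5′ to 3′ on the gene's strand and ends at the start site at the latest, and capitals mark the match. Positions of the match are counted from the annotated start, the base before it being -1.
Asb14, chr14:26894559-26894613, plus strand, match from -30 to -21: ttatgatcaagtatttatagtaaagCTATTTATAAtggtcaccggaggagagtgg
Asb12, chrX:95478143-95478202, minus strand, match from -48 to -39: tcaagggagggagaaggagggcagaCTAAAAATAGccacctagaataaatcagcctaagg
Asb18, chr1:90014667-90014702, minus strand, match from -11 to -2: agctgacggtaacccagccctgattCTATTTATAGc
Asb16, chr11:102268668-102268727, plus strand, match from -58 to -49: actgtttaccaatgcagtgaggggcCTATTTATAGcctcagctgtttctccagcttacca
Asb5, chr8:54571333-54571392, plus strand, match from -81 to -72: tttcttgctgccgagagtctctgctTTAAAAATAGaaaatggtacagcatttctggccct
Klhl33, chr14:50897499-50897558, minus strand, match from -50 to -41: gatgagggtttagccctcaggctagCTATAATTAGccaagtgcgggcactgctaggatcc
Klhl41, chr2:69670032-69670091, plus strand, match from -63 to -54: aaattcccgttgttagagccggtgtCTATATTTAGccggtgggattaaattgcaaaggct
Fbxo40, chr16:36990534-36990593, minus strand, match from -101 to -92: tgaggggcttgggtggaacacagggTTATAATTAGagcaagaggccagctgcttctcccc

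Among the Asb genes, 4 of 15 measurable members were lower by 1.5-fold or more in the knockout pool, against 1.9% of all measurable genes, and 1 was at least 1.5-fold higher, against 6.45%. A lower value of any size was seen for 13 of the 15, against 44.5% of all measurable genes. The median difference was -0.28, with a range from -1.16 to 0.67. In pooled RNA, fewer muscle fibres and less RNA per fibre cannot be told apart.

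Asb11, whose zebrafish counterpart acts on a Notch ligand, read 6.59 on the wild type array and 5.43 on the knockout one. It was 2.23-fold lower, the only member past 2-fold in either direction, against 0.187% of all measurable genes at least 2-fold lower. The difference exceeded in size those of 99.8% of the 500 genes nearest to it in mean value. Asb14 read 6.08 and 5.11 in the same order and was 1.95-fold lower, and Asb10 read 6.08 and 5.16 and was 1.89-fold lower. Asb2, which directs filamins to breakdown and is an Asb gene of striated muscle and blood cells, read 8.99 and 8.18, a 1.75-fold lower value. For the last 3 genes the difference exceeded those of 97.4%, 97.2% and 93.6% of the 500 nearest genes. The knockout value lay below the wild type value and above the floor in all 4. Of these genes only Asb14 is among the 8 with a MEF2 match in the promoter searched.

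The next Asb genes were lower by less. Asb12, on the X chromosome, read 7.16 on the wild type array and 6.62 on the knockout one, a difference of -0.54 that passed 1.5-fold (-0.61) once a loess trend on mean value was removed. Asb18 read 5.02 and 4.68, and Asb5, known from muscle and satellite cells, read 8.45 and 8.17. Asb15, which has been linked to muscle growth, read 5.25 and 4.99, and Asb16 read 5.45 and 5.32. These 4 differences ran from -0.33 to -0.13, within or close to 0.28, the robust SD of the difference over genes. Asb12, Asb18, Asb5 and Asb16, which have a MEF2 match, thus all lay inside 1.5-fold.

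The remaining Asb members differed little, with 1 exception. Asb1 (6.16 and 5.88), Asb13 (6.18 and 5.91), Asb8 (8.27 and 8.04) and Asb6 (5.99 and 5.82) read lower by 0.28 or less on the log2 scale. Asb3, which targets a receptor of tumour necrosis factor, read 5.41 on the wild type array and 5.52 on the knockout one. Asb7, linked to the mitotic spindle, was higher by 1.59-fold in the knockout pool.

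The value of Asb7 is the least secure of these. It read 4.20 in the wild type pool, below the floor, and 4.87 in the labelled knockout pool. Its second probe set read 4.34 and 4.68, a difference of 0.34, and the mean of both probe sets gave 0.50, under 1.5-fold. The 3 Asb members below the floor in both pools were all lower: Asb4 by 0.95 (3.84 and 2.89), Asb9 by 0.41 (2.80 and 2.39) and Asb17 by 0.41 (2.26 and 1.85), at levels where the array resolves little.

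**Figure D1:**
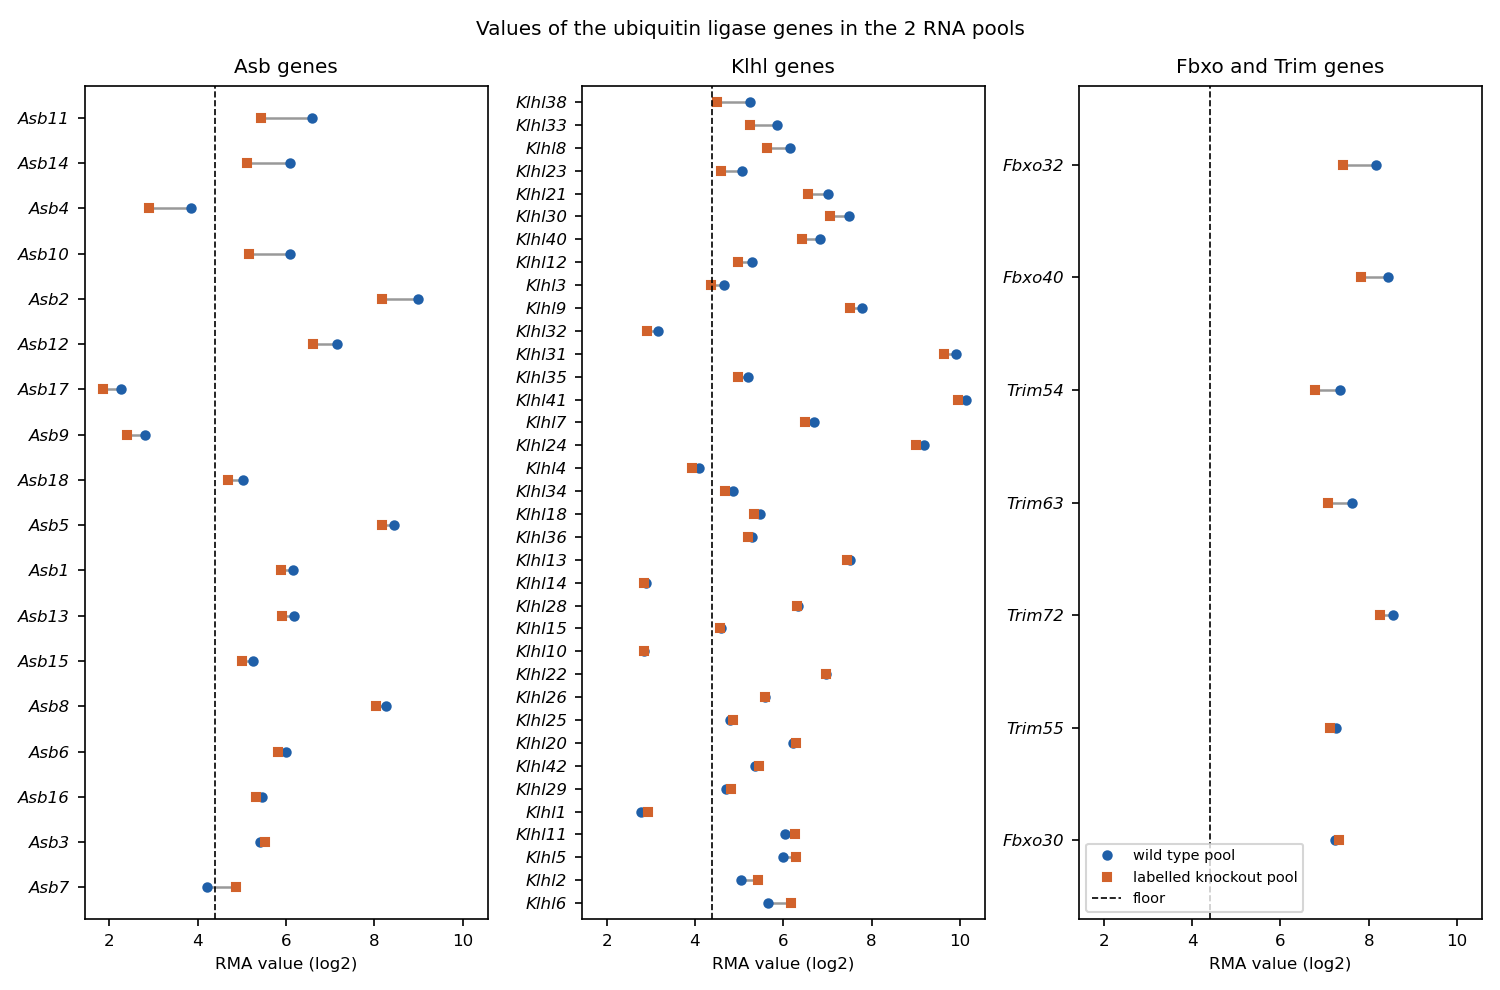
Log2 RMA value (horizontal axis) of each of the 61 members in the wild type pool (circles) and the labelled knockout pool (squares), 1 array each, with families in separate panels, genes ordered by their difference and the floor of 4.39 as a dashed line. The longest gap above the floor is that of Asb11, from 6.59 to 5.43, and the squares lie to the left for 13 of 15 measurable Asb genes.

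The kelch-like genes differed by less than the Asb genes. Of 31 measurable members, 2 were at least 1.5-fold lower (against 1.9% of all genes) and 0 at least 1.5-fold higher (against 6.45%). The median difference was -0.17, and 21 of the 31 were lower by any amount (against 44.5%). Differences ran from -0.74 to 0.52.

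Klhl38 read 5.24 on the wild type array and 4.50 on the knockout one, 1.67-fold lower, with the second value just above the floor. Klhl33, which has a MEF2 match, read 5.86 and 5.25 and was 1.53-fold lower. Klhl8, whose worm counterpart controls turnover of the receptor-clustering protein rapsyn, read 6.15 and 5.63, a difference of -0.53 that stayed inside the limit.

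Klhl40, Klhl41, Klhl31 and Klhl30 are kelch genes known from the sarcomere and muscle. Klhl40, which stabilises nebulin and leiomodin 3 in the thin filament, read 6.84 on the wild type array and 6.43 on the knockout one. Klhl41, which also acts on nebulin, read 10.15 and 9.96. Klhl31, which controls the Z-disc protein filamin C, read 9.90 and 9.65, and its second probe set 9.64 and 9.15, so that its difference was -0.26 or -0.49 by probe set. Klhl30 read 7.49 and 7.06. All 4 read lower in the labelled knockout pool, and none reached 1.5-fold. The differences of Klhl30 (-0.43) and Klhl40 (-0.41) exceeded in size the robust SD of 0.28.

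Kelch genes of other functions went both ways. Klhl21, Klhl9 and Klhl13, which bring Aurora B kinase under cullin 3 control in dividing cells, differed by -0.44, -0.27 and -0.08. Klhl3 and Klhl2, both adaptors for WNK kinases of salt transport, went opposite ways: Klhl3 read 4.65 and 4.37, the second value below the floor, while Klhl2 read 5.04 and 5.44. Klhl12, an adaptor for the vesicle coat protein SEC31, differed by -0.32. The remaining lower values were those of Klhl23 (-0.48), Klhl35 (-0.22), Klhl7 (-0.19), Klhl24 (-0.18), Klhl34 (-0.17), Klhl18 (-0.14), Klhl36 (-0.09), Klhl28 (-0.02) and Klhl15 (-0.01).

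The highest difference among the kelch genes was that of Klhl6, a gene of B lymphocytes and other blood cells, which read 5.66 on the wild type array and 6.17 on the knockout one. After it came Klhl2 (0.40), Klhl5 (0.29) and Klhl11 (0.23). Klhl29, Klhl42, Klhl20, Klhl25, Klhl26 and Klhl22 read higher by 0.11 or less. Of 25 macrophage and monocyte marker genes, all measurable, 23 were at least 1.5-fold higher in the same RNA, against 6.45% of all measurable genes. Their differences ran from 0.22 to 2.11 with a median of 1.06. The part of these cells in the value of Klhl6 was not tested.

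Of the 7 Fbxo and Trim genes, all measurable, 2 were at least 1.5-fold lower and 0 at least 1.5-fold higher, against 1.9% and 6.45% of all genes. The median difference was -0.55, and 6 of the 7 were lower by any amount (against 44.5%). Fbxo32, the F-box gene of muscle wasting, read 8.16 on the wild type array and 7.42 on the knockout one, 1.68-fold lower. Fbxo40, an F-box gene of muscle that directs insulin receptor substrate 1 to breakdown, read 8.43 and 7.82, 1.53-fold lower, and has a MEF2 match. Fbxo30 (MUSA1), also induced when muscle wastes, read 7.24 and 7.32, a difference of 0.08.

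The Trim genes include the 3 MuRF proteins, RING ligases of striated muscle, of which MuRF1 binds titin. Trim63 (MuRF1) read 7.63 on the wild type array and 7.08 on the knockout one. Trim54 (MuRF3) read 7.34 and 6.78, and Trim55 (MuRF2) read 7.26 and 7.13. The differences of Trim63 (-0.55) and Trim54 (-0.56) lay just inside 1.5-fold. Both passed it when the loess trend was removed (-0.62 and -0.63), which brought the lower members of the set to 4, and Trim54 also passed after median centring (-0.59). Trim72 (MG53), which reseals torn fibre membranes, read 8.55 and 8.26. The values of Trim55 and Fbxo30 were thus the nearest to equal in this set.

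Some members are neighbours on a chromosome. In the RefSeq order of protein-coding genes on GRCm38.p6, Fbxo32 and Klhl38 are adjacent on chromosome 15, and their differences were -0.75 and -0.74. Asb11 and Asb9 are adjacent on the X chromosome, with -1.16 for Asb11 and -0.41 for Asb9, which was below the floor. Klhl6 (0.52) and Klhl24 (-0.18) are adjacent on chromosome 16. Klhl10, below the floor with a difference of 0.00, and Klhl11 (0.23) are adjacent on chromosome 11. Adjacent members therefore had like differences in the first pair and differences of opposite sign in the Klhl6 pair.

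The partners that these adaptors need differed little between the pools. None of 13 measurable cullin, RING, elongin and SKP1 genes was past 1.5-fold, and their median difference was -0.07. Of all measurable genes 1.9% were lower and 6.45% higher past 1.5-fold. In lists as short as those of this paragraph, none past the limit is near these shares and says little. Cul5, the cullin of Asb proteins, read 7.41 on the wild type array and 7.30 on the knockout one. Cul3, the cullin of kelch-like proteins, read 8.89 and 8.81, and Cul1, that of F-box proteins, 8.28 and 8.29. The largest differences of this list were those of Cul4b (0.23), Cul9 (-0.23) and Rnf7 (0.22), the RING partner of cullin 5. Of 20 measurable genes for neddylation and cullin exchange, which switch cullin ligases on and off, none was past 1.5-fold (median -0.05), and Cops7a (-0.25), Dcun1d1 (-0.25) and Dcun1d2 (-0.25) differed most. Of 16 measurable genes for ubiquitin-activating and conjugating enzymes, none was past 1.5-fold (median -0.12), with Cdc34 (-0.39), Ube2e1 (-0.36) and Uba6 (0.28) largest.

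Relatives of the members outside the 3 groups also had medians near that of all genes. Their counts past 1.5-fold stand against 1.9% lower and 6.45% higher of all measurable genes, and few or none is near these shares. The 21 measurable SOCS box genes other than Asb had a median of 0.10 and none past 1.5-fold, with Socs3, a feedback inhibitor of cytokine signalling, at 0.51, Fem1a at -0.49 and Neurl2 at -0.45. The 9 other measurable kelch genes with a BTB domain had a median of -0.04 and none past 1.5-fold. Kbtbd12 (-0.47) and Kbtbd13 (-0.47), the second a nemaline myopathy gene, were lowest, and Enc1 was at 0.32. Among 48 other measurable F-box genes (median -0.01), Fbxo31 (1.54-fold) and Fbxw10 (1.54-fold, to 4.12 below the floor) were lower, and Fbxl18 was at -0.48. Among 33 other measurable Trim genes (median 0.11), Trim7 was lower past 1.5-fold (-0.59), Trim2 1.60-fold higher from 4.19 below the floor, and Trim59 at 0.57. Of 16 other ubiquitin ligases studied in muscle, none was past 1.5-fold (median 0.04), with Rnf123 at -0.53, Cblb at 0.37 and Wwp1 at -0.35.

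RNA values of known substrates and partners were mostly lower by small amounts. Of 16 measurable genes, 12 were lower by any amount (against 44.5% of all measurable genes), and the median was -0.16. At least 1.5-fold lower was 1 gene and at least 1.5-fold higher were 2, against 1.9% and 6.45%. Ckb, the brain-type creatine kinase bound by ASB9, was 1.95-fold higher (7.49 on the wild type array and 8.46 on the knockout one), and Flna, the filamin A gene, 1.64-fold higher (8.58 and 9.29). Myh2, a fast myosin gene, was 1.53-fold lower. Irs1, the substrate of FBXO40 and TRIM72, read 7.82 and 7.37, and Lmod3, the leiomodin held by KLHL40, 8.42 and 8.10. Neb, the nebulin gene, differed by -0.19 and Flnc by -0.09. Flna and Ckb are also expressed outside muscle fibres, in RNA where the macrophage median was 1.06, and the part of other cells in their values was not tested.

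Regulators of fibre wasting were mostly lower by small amounts. Of 20 measurable genes, 15 were lower by any amount (against 44.5% of all measurable genes), with a median of -0.09. At least 1.5-fold lower was 1 gene and at least 1.5-fold higher 1, against 1.9% and 6.45%. Counts of 1 in a list this short say little. Mstn, the gene of the growth inhibitor myostatin, was 1.67-fold lower (5.48 and 4.74), and Ctsl, a lysosomal protease of macrophages and wasting muscle, was 2.62-fold higher. Hdac4 differed by -0.40. The forkhead genes Foxo1, Foxo3 and Foxo4, whose products induce Fbxo32 and Trim63, differed by -0.19, -0.03 and -0.30.

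Genes of the fibre itself give a scale for the members, though at an unlike level of expression. Wild type values ran from 7.92 to 12.56 in the sarcomere list and from 4.20 to 10.15 in the measurable members. All 30 adult sarcomere genes were measurable, 29 of them lower (against 44.5% of all measurable genes), and their median was -0.21 with a range from -0.68 to 0.02. Mylk2 (1.60-fold) and Myh2 (1.53-fold) were past the limit, and Cmya5 was at -0.50. The Asb median of -0.28 and the kelch median of -0.17 lie on either side of the sarcomere median, and the Fbxo and Trim median of -0.55 lies below it. The 6 members Asb11, Asb14, Asb10, Asb2, Fbxo32 and Klhl38, were lower than each of the 30 sarcomere genes, against 115 of the 11787 measurable genes (0.976%). Being the lowest members, they were picked by their values, and this count is a description. Asb11, Asb14, Asb10 and Klhl38 also read below 7.92, the lowest wild type value of the sarcomere list, so the levels were not matched. Below the sarcomere median were 11 of 15 Asb genes, 12 of 31 kelch genes and 5 of 7 Fbxo and Trim genes, against 2253 of the 11787 measurable genes (19.1%).

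Other cell types in the pools were described by markers. Of 13 measurable satellite cell and myoblast markers (median -0.13), 10 were lower by any amount (against 44.5% of all measurable genes) and 3 higher. Only 1 was lower past 1.5-fold, the neonatal myosin gene Myh8 (1.54-fold), while Myh3 was at -0.44 and Vcam1 at 0.27. Myh8 and Myh3 are myosin genes of the fibre and say little about these cells. Pax7 differed by -0.23, Myod1 by -0.21 and Myf5 by 0.10. Of 13 fibroblast markers (median 0.12) Thy1 was 1.53-fold higher, with Mfap5 at 0.26 and Cd34 at -0.24. Of 12 endothelial markers (median -0.06) Vwf was 1.79-fold higher, with Eng at 0.31 and Kdr at -0.29. Over all measurable genes 1.9% were lower and 6.45% higher past 1.5-fold, so 1 gene in lists this short says little. Only Mmp9 (3.58) and Csf3r (0.38) of 10 neutrophil markers reached the floor. Over all 10, with 8 below the floor, the median difference was 0.33, so this list says little about neutrophils. In the macrophage list Msr1 (2.11), Itgb2 (2.07) and Gpnmb (1.96) were highest, its lowest wild type value being 4.85. The part of a changed mix of cells in the lower values of the members was not tested.

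**Figure D2:**
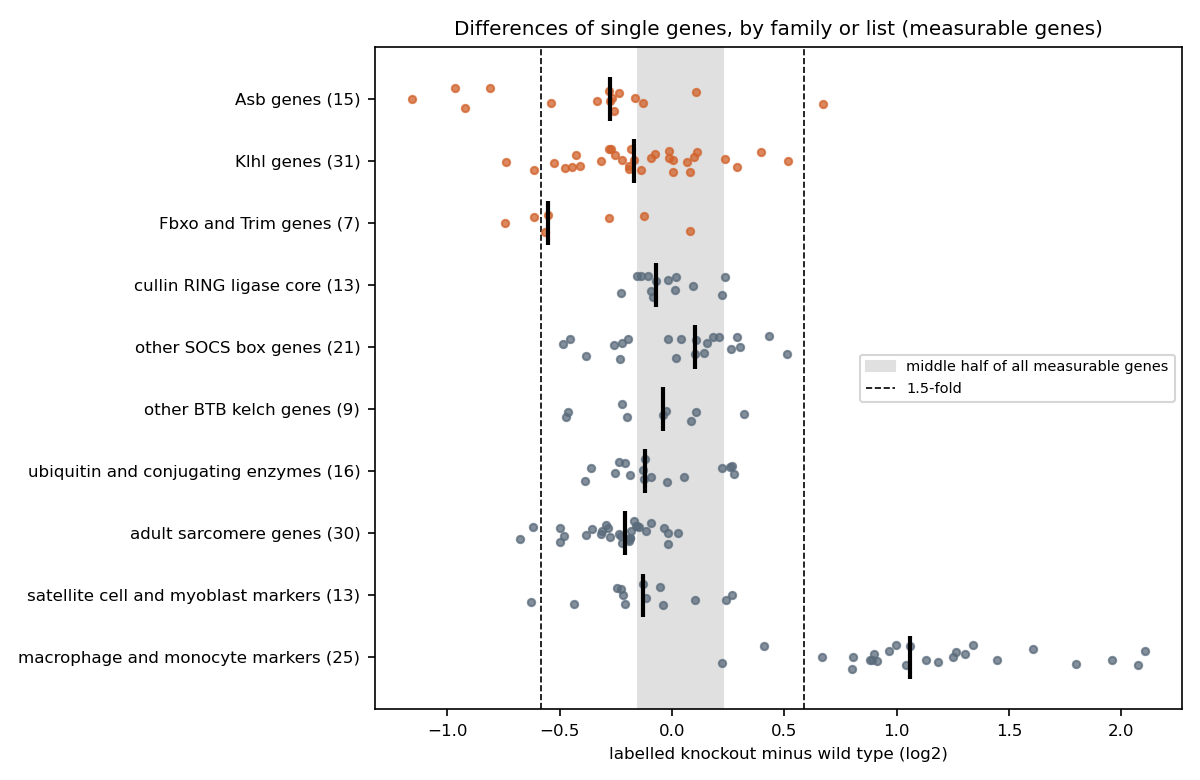
Difference of each measurable gene, labelled knockout minus wild type on the log2 scale (horizontal axis), for the 3 member families (orange) and for lists of partners, relatives and cell markers (grey), with the number of genes in brackets, a black bar at each median, dashed lines at 1.5-fold and a band from the lower to the upper quartile of all measurable genes. Vertical scatter within a row only separates points. The member medians lie at -0.28, -0.17 and -0.55, the sarcomere median at -0.21 and the macrophage median at 1.06.

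The promoter matches shown above were set beside those of all genes in the RefSeq table. The MEF2 consensus matched in 8 of 52 member genes (15.4%) and in 1001 of 27025 genes (3.70%). By family it matched in 5 of 17 Asb genes, 2 of 30 kelch genes and 1 of 5 Fbxo and Trim genes. The 8 matches lay between -101 and -2. Of the 22 adult sarcomere genes with a promoter, 4 had a match (18.2%), namely Myh1, Myh4, Myoz2 and Ttn.

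All 8 members with a match were measurable and lower in the labelled knockout pool, from -0.97 for Asb14 to -0.13 for Asb16, with a median of -0.44. Of the 37 measurable members whose promoter had no match, 26 were lower, with a median of -0.19, and they include Asb11, Asb10 and Asb2. At least 1.5-fold lower were 3 members with a match (Asb14, Klhl33 and Fbxo40) and 3 without, while Fbxo32 and Klhl38 had no promoter in the table. Over all measurable genes these numbers were 13 of 216 with a match and 158 of 9182 without. Within the Asb genes the medians were -0.33 for 5 genes with a match and -0.27 for 9 without. Over all measurable genes in the table the median was -0.03 for the genes with a match, of which 52.8% were lower, and 0.03 for those without, of which 44.0% were lower. Within the sarcomere list it was -0.16 with a match and -0.19 without. A match is a run of letters and not a measured binding site, and its absence says only that these letters are not in this window.

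Other motifs were searched on both strands in the same windows. The E-box CANNTG matched in 37 of 52 member genes (71.2%) and 20265 of all 27025 genes, and its form CAGCTG, favoured by MyoD and counted within the first, in 19 of 52 members (36.5%) against 18.3%. Members with CAGCTG included low ones such as Asb2 (-0.81) and Fbxo40 (-0.61) and the highest of the Asb and kelch genes, Asb7 (0.67) and Klhl6 (0.52). The 16 measurable members with it had a median difference of -0.25, against -0.24 for 29 without it. The MCAT element CATTCC matched in 19.2% against 16.6%, and the forkhead site GTAAACA in 5.77% against 4.05%, in Asb16, Asb18 and Trim63. The CArG box bound by serum response factor matched in 2 members, Asb2 and Asb5 (3.85%, against 1.81%), and overlapped none of the MEF2 matches. Both are shown because Asb2 is among the lowest members and has no MEF2 match. For Asb5 the CArG match and the MEF2 match belong to different annotated starts, and these arrays do not tell which start is used.
Asb2, chr12:103356031-103356090, minus strand, match from -64 to -55: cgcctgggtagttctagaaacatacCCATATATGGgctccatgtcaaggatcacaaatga
Asb5, chr8:54550095-54550154, plus strand, match from -211 to -202: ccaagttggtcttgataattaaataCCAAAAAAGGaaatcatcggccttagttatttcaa

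**Figure D3:**
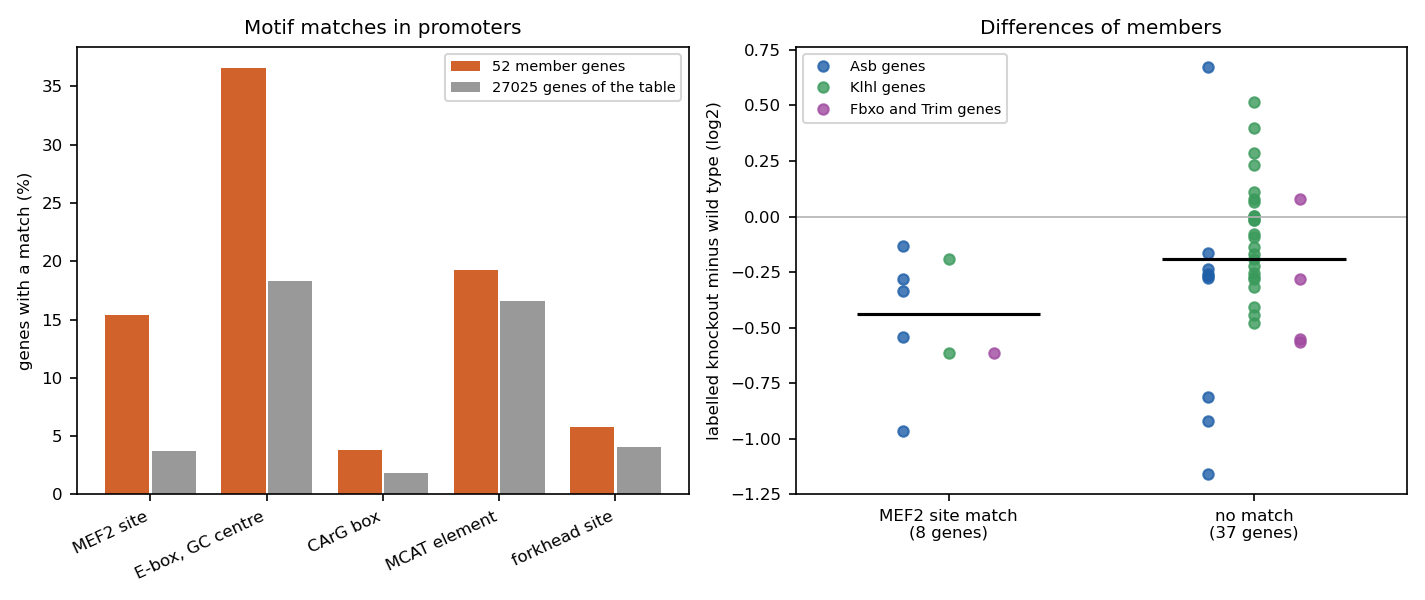
Left, share of genes with at least 1 match of each motif (vertical axis, percent, from 0) in 52 member genes (orange) and in all 27025 genes of the promoter table (grey). Right, difference on the log2 scale of the measurable members with and without a MEF2 match, 1 point per gene coloured by family, with the medians of -0.44 (8 genes) and -0.19 (37 genes) as bars, so that the 8 genes with a match all lie below 0 while those without lie on both sides.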

How the data were processed

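RNA of 1 wild type and 1 Mef2a knockout pool (5 mice each) was measured on 1 array per pool. The deposited values are log2 expression values; the submitters' processing notes name RMA and Affymetrix Expression Console, with versions not given in the sources used here. RMA normalizes by quantiles, so a change shared by most genes cannot be seen, and it shrinks differences of weak probe sets. Precision is limited by the 2 arrays.

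Of 35557 probe sets, 21789 carried 1 symbol. The highest-mean probe set per gene gave 19938 genes, and no probe set joined a member to another gene. All 61 members matched RefSeq (GRCm38.p6) by gene identifier under the same symbol. Differences, counts past 1.5-fold and ranks among 500 genes of nearest mean were computed with pandas 2.3.3 and numpy 2.4.6 (Python 3.11.15). The calls were also run on simulated data with planted changes larger than that of any member. That run checks the code and not the 1.5-fold limit. No test or p-value is given. Members and lists were chosen with earlier results of these data known. Named genes are all measurable members, and of each other list the 3 largest differences and those past 1.5-fold. In the macrophage list, where 23 were past it, the 3 largest alone are named. Other cullins, Irs1, Lmod3, Neb, Flnc, the Foxo genes, Pax7, Myod1 and Myf5 were chosen after their values were seen. So were the genes shared by the substrate and sarcomere lists. Alternatives were median centring, removal of a loess trend (span 0.3, statsmodels 0.14.6), a mean over probe sets, changed floors (3) and changed fold limits (2). Protein sequences were not used here.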

Additional observations from a re-analysis of the deposited data

How the results depend on the processing

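No paired analysis was possible because each genotype has 1 array, and leaving out a sample was not possible either. The lower Asb genes numbered 4 of 15, and 2 with a higher floor of 6.18 (the 75th percentile), where the Asb median moved to -0.41, or 1 at a 2-fold limit, 5 with the loess trend removed, 5 without a floor and 6 at a limit of 0.32 on the log2 scale. The higher Asb gene, Asb7, left 0 with the mean of all probe sets, with the higher floor, with the floor required in both pools and at 2-fold. The lower kelch genes were 0 with the higher floor, 0 at 2-fold and 7 at the 0.32 limit, where 2 were higher. The lower Fbxo and Trim genes were 4 with the loess trend removed, 0 at 2-fold and 4 at the 0.32 limit. The higher floor leaves fewer Asb and kelch members, and Asb10, Asb14, Klhl33 and Klhl38 are among those left out. The lower Asb count there thus need not be a smaller share, whereas no kelch gene stayed past the limit. All 7 Fbxo and Trim genes reached the higher floor, and 2 were lower as before. All 3 family medians stayed below 0 in each alternative run. Of 290 values of single members under alternatives, 285 kept their direction, and the 5 that did not belong to 3 members with differences of 0.01 or less in size. Most of the 290 could not change. A changed floor leaves a difference as it is, and averaging probe sets alters only genes that have several. The 285 are therefore no measure of robustness. Without a floor, 618 of 19938 genes (3.1%) were at least 1.5-fold lower, and with the higher floor 94 of 6259 (1.5%). With the loess trend removed they were 227 of 11787 (1.93%), against 224 of 11787 (1.9%) in the main run. The higher genes were 847 (4.25%), 526 (8.4%) and 693 (5.88%) in the same order, against 760 (6.45%). At 2-fold and at the 0.32 limit, 22 (0.187%) and 1209 (10.3%) of the 11787 genes were lower, and 200 (1.70%) and 1971 (16.7%) higher. Weak signal limits the members near the floor, such as Asb7, Asb18 and Klhl38.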
